A study of Mus musculus with 59 samples.

Results

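The genes described here were 10 genes of bile acid synthesis, conjugation, transport and sensing in mouse liver, *Cyp7a1*, *Cyp7b1*, *Cyp8b1*, *Cyp27a1*, *Baat*, *Slc10a1*, *Abcb11*, *Abcb4*, *Nr0b2* and *Nr1h4*. Their binding sites for BCL6, PPARα and PPARδ were taken from 7 ChIP-seq peak lists. A peak was assigned to a gene when its center lay in the gene, or when the nearest transcription start site (TSS) of a protein-coding RefSeq gene belonged to it and was within 100 kb. Peaks with centers within 200 bp of each other were joined into sites over the 6 lists of C57BL/6 livers. The 10 genes, of 21000 protein-coding genes, had 74 of 38462 sites. BCL6, PPARα and PPARδ were each mapped in livers of male wild-type C57BL/6 mice that fed ad libitum and of the same kind of mice after an overnight fast. BCL6 was also mapped in livers of ad libitum fed *Bcl6* fl/fl mice without Cre, whose floxed *Bcl6* alleles are intact. Each list was called over 3 pooled animals and holds positions only, so a site is either called or not called, no value has an error between animals, no difference was tested, and a missing call is not absence of binding. Unless the *Bcl6* fl/fl list is named, calls are those of the C57BL/6 lists, also where a factor is said to be alone. Sequencing depth is unknown from the lists and could differ between states. Marker expression of the tissue could not be checked in lists of positions.

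Bile acids are made from cholesterol in hepatocytes. The classical pathway begins with the rate-limiting enzyme CYP7A1, and CYP8B1 then directs the product to cholic acid. The alternative pathway begins with the mitochondrial CYP27A1 and proceeds through CYP7B1. BAAT joins bile acids to taurine or glycine, NTCP (encoded by *Slc10a1*) takes them up from blood, BSEP (*Abcb11*) exports them into bile, and MDR2 (*Abcb4*) moves phosphatidylcholine into bile. The bile acid receptor FXR (*Nr1h4*) induces the repressor SHP (*Nr0b2*), which holds back synthesis in part through the nuclear receptors LRH-1 and HNF4α. BCL6 is a zinc finger repressor, PPARα is the main fasting-activated lipid receptor of liver, and PPARδ is its relative.

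Sequences are shown for the sites on which the description turns, from GRCm38, the assembly of mm10, on the strand of the gene. They cover the 200 bp around a site's center, less any untranslated exon. Capitals mark matches, on either strand, to 7 elements: the BCL6 element TTCCTAGAA and the LRH-1 element TCAAGGTCA with up to 1 mismatch, the HNF4 element CAAAGTCCA with up to 1 mismatch, the FOXA element TGTTTAC without mismatch, and pairs of the nuclear receptor core AGGTCA with up to 2 mismatches. The pairs were a direct repeat with a 1-base spacer (DR1, the form bound by PPAR with RXR), an inverted repeat with a 1-base spacer (IR1, the form bound by FXR with RXR) and a direct repeat with a 4-base spacer (DR4, the form bound by LXR with RXR). The LRH-1 element holds the receptor core, so 1 stretch can match it and a repeat. A match describes letters and not an occupied site. The first set comes from the sites called in all 6 C57BL/6 lists, of which the members had 3 among their 74, and shows 2 of them. The share of such sites over the genome is not given here. The same 3 were the only member sites with PPARδ in both states, 3 of 20 PPARδ sites beside 18.7% of all PPARδ sites.
*Cyp7a1* 36392 bp downstream, chr4:6239140-6239339, minus strand: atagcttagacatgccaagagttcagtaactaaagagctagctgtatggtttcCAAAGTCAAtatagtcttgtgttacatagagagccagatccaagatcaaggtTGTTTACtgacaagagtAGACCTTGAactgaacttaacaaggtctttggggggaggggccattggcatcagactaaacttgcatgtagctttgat
*Nr1h4* 11904 bp upstream of its internal TSS, chr10:89518462-89518661, minus strand: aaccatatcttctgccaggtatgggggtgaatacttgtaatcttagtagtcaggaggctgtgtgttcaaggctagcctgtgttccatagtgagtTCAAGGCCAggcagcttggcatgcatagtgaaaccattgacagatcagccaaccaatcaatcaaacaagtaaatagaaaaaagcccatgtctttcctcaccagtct

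A promoter here reached 1000 bp upstream and 100 bp downstream of a TSS. The second set holds promoter sites of 6 members at which BCL6 was called, which differ in their feeding state from gene to gene.
*Cyp8b1* promoter, chr9:121916317-121916516, minus strand: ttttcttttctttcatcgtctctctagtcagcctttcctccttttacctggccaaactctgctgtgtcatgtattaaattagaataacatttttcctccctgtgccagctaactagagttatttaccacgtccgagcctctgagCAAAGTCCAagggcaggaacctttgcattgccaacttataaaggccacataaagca
*Cyp27a1* promoter, chr1:74712778-74712977, plus strand: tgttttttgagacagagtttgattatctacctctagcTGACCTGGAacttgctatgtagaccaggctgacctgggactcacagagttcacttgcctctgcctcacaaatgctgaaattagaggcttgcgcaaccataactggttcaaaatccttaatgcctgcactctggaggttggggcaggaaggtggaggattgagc
*Slc10a1* promoter, chr12:80968080-80968205, minus strand: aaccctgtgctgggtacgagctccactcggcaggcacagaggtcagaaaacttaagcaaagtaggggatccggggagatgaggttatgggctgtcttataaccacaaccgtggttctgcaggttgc
*Abcb11* promoter at 66 bp, chr2:69342617-69342781, minus strand: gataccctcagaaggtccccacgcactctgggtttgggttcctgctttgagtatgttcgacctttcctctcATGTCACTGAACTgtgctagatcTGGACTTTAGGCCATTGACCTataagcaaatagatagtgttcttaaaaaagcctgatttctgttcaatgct
*Abcb11* promoter at 425 bp, chr2:69342941-69343140, minus strand: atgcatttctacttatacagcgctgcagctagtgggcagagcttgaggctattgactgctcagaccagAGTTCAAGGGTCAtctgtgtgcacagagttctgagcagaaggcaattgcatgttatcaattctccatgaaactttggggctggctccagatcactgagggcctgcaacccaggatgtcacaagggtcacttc
*Nr0b2* promoter, chr4:133552890-133553089, plus strand: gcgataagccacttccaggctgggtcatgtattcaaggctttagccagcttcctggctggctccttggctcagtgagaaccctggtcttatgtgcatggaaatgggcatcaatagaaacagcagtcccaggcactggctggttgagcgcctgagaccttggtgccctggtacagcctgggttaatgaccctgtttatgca
*Nr1h4* promoter, chr10:89533623-89533782, minus strand: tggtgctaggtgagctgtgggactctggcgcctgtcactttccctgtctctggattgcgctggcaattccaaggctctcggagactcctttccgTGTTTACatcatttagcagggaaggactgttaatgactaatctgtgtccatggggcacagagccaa

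The last sequence belongs to the only member site at which BCL6 and PPARα were each called in a single and opposite state, BCL6 in fasted and PPARα in fed livers of C57BL/6 mice.
*Cyp7a1* 32643 bp downstream, chr4:6242889-6243088, minus strand: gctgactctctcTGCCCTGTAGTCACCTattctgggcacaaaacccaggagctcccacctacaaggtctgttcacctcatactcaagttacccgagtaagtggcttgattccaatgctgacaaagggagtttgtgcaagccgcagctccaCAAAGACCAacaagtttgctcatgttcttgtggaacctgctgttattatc

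Members carried 3 to 13 sites each. *Nr1h4* had 13, *Cyp7b1* and *Abcb4* 12 each, *Cyp7a1* 10, *Cyp27a1* 6, *Cyp8b1* and *Baat* 5 each, *Slc10a1* and *Nr0b2* 4 each and *Abcb11* 3. The median over members was 5.5 sites, and over all protein-coding genes it was 1. At least 1 site of any factor was found at 10 of 10 members and at 52.7% of all protein-coding genes. BCL6 sites were found at 10 of 10 members (30.9% of all genes), PPARα sites at 10 of 10 (49.5% of all genes) and PPARδ sites at 9 of 10 (21.1% of all genes), *Cyp8b1* being the member without a PPARδ site. Sites with both BCL6 and PPARα, called shared sites below, were present at 10 of 10 members and at 25.9% of all genes. Counts of 13 or more sites occurred at 1.56% of all genes, 12 or more at 1.94%, 10 or more at 3.21% and 3 or more at 22.8%. Members were chosen with these results known, and many genes expressed in liver have sites, so these shares describe the members and set nothing apart.

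**Figure D1:**
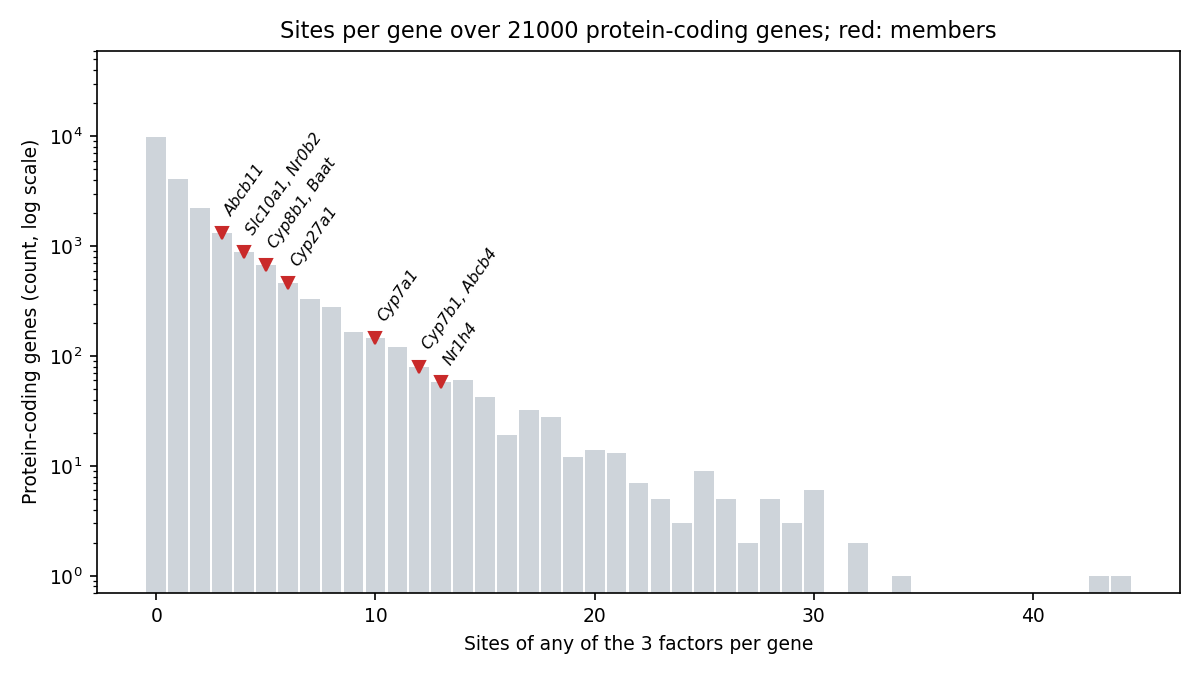
Number of protein-coding genes (vertical axis, log scale) by their number of sites of any of the 3 factors (horizontal axis), for 21000 genes. Red markers give the bars that hold the 10 members, from *Abcb11* with 3 sites to *Nr1h4* with 13.

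Gene size and the distance to the next gene set how much sequence can be assigned to a gene. The stretch assigned to a member ran from 14.4 kb for *Nr0b2* to 271 kb for *Cyp7b1*. Per 100 kb of it, *Nr0b2* had 27.9 sites, *Cyp8b1* 19, *Baat* 14.3, *Cyp27a1* 11.9, *Nr1h4* 11.6, *Cyp7a1* 11.5, *Abcb4* 10.6, *Slc10a1* 8.97, *Cyp7b1* 4.42 and *Abcb11* 2.43. Over the members together the density was 8.43 sites per 100 kb, and over all protein-coding genes 1.97. The small loci of *Nr0b2* and *Cyp8b1* were therefore the most densely occupied members, and the long *Cyp7b1* and *Abcb11* loci the least.

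Of the 74 member sites, 35 lay inside a member gene, 33 of them in introns and 2 in untranslated exons. Another 28 lay upstream and 11 beyond the 3′ end of the gene. The median distance of a site from the nearest TSS of its gene was 9520.5 bp, 36 sites were more than 10 kb away and 12 were within 1 kb. Those 12 were the promoter sites, 16.2% of the member sites (95% Wilson interval 9.53% to 26.2%) beside 11.9% of all sites. Intervals of shares here cover counting error only, and sites at 1 gene are not independent of each other.

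**Figure D2:**
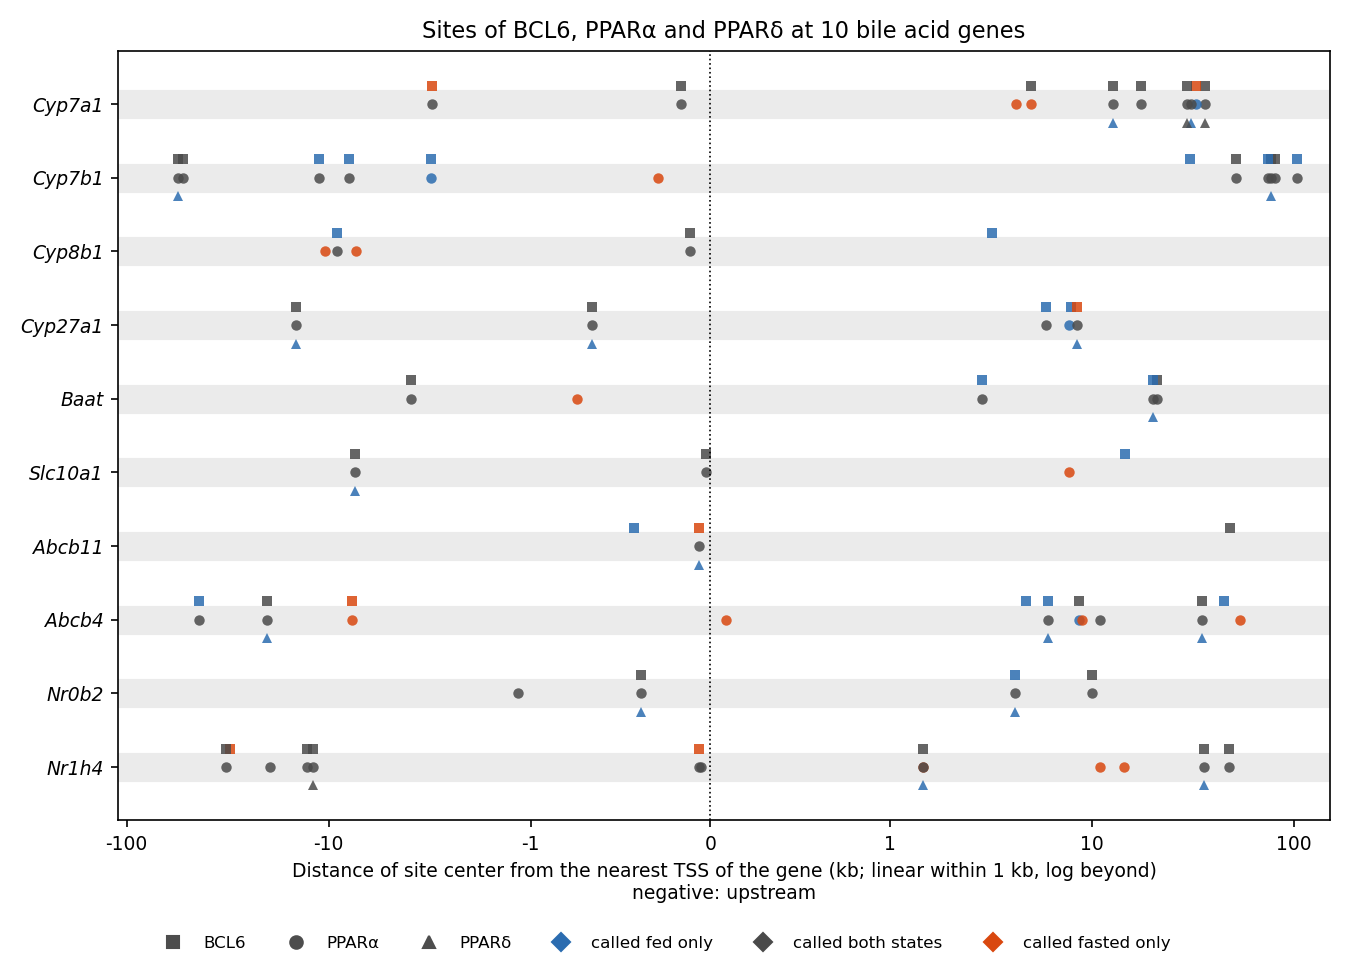
Position of each site center relative to the nearest TSS of its gene (horizontal axis, kb, linear within 1 kb and logarithmic beyond, negative values upstream) at the 10 members. Squares are BCL6, circles PPARα and triangles PPARδ, with color giving the feeding state of the call, and most PPARδ triangles sit below a gray BCL6 and PPARα call.

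*Cyp7a1* (chr4:6265612-6275632, minus strand) encodes the cholesterol 7α-hydroxylase. PPARα was called at all 10 of its sites, BCL6 at 8 and PPARδ at 4. Its promoter site was called for BCL6 and PPARα in both states and for PPARδ in neither. A second upstream site, at 3089 bp, had PPARα in both states and BCL6 in fasted livers only. Within the gene, the site in intron 4 had BCL6 in both states and PPARα in fasted livers only, and a site in intron 3 had PPARα in fasted livers only.

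The other 6 *Cyp7a1* sites lay beyond its 3′ end, 12680 to 36392 bp from the TSS. The sites at 36392 and 29376 bp were called for all 3 factors in both states, and no other gene among the members had more than 1 such site. The site at 12680 bp had BCL6 and PPARα in both states and PPARδ in fed livers only. At 17452 bp BCL6 and PPARα were called in both states without PPARδ. The site at 30941 bp was the only member site with PPARα and PPARδ but no BCL6 call, with PPARα in both states and PPARδ in fed livers. That combination of factors made up 6.03% of all sites. At 32643 bp BCL6 was called in fasted and PPARα in fed livers, a combination found at 0.557% of all shared sites. No BCL6 site of *Cyp7a1* was called in fed livers only. Its 2 BCL6 sites called in fasted but not fed C57BL/6 livers, at 3089 and 32643 bp, both had a peak in the fed *Bcl6* fl/fl list.

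*Cyp8b1* (chr9:121914356-121916305, minus strand) encodes the sterol 12α-hydroxylase. Its promoter site at chr9:121916280-121916562, 112 bp upstream, was called for BCL6 and PPARα in both states, as at *Cyp7a1*. The 200 bp around it hold CAAAGTCCA, the HNF4 element without mismatch. Further upstream sites, at 7305 and 10474 bp, had PPARα in fasted livers only. At 9047 bp upstream PPARα was called in both states and BCL6 in fed livers only. BCL6 alone, in fed livers, was called 3200 bp downstream of the TSS. Thus 2 of the 4 PPARα sites of *Cyp8b1* were called in fasted livers only, and 2 of its 3 BCL6 sites in fed livers only.

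*Cyp27a1* (chr1:74713535-74737897, plus strand) encodes the sterol 27-hydroxylase. The promoter site at chr1:74712741-74713020, 657 bp upstream, and the site 14571 bp upstream carried the same calls, BCL6 and PPARα in both states and PPARδ in fed livers only. The distal site holds the LRH-1 element TCAAGGTCA without mismatch. The other 4 sites lay in intron 1, between 5898 and 8375 bp downstream of the TSS, and none of them had BCL6 in both states. BCL6 had fed calls without fasted ones at 5898 and 7902 bp and was called in fasted livers only at 8375 bp, where PPARα was called in both states and PPARδ in fed livers. PPARα alone was called in fed livers at 7701 bp. Its center was just beyond the joining distance from the site of BCL6 alone at 7902 bp.

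*Cyp7b1* (chr3:18071950-18243338, minus strand) encodes the oxysterol 7α-hydroxylase and had 12 sites. Of its 11 BCL6 sites, 6 had a fed call alone and the other 5 were called in both states, so that none was confined to fasted livers. The fed *Bcl6* fl/fl list had a peak at 3 of those 6, so 3 fed-only sites were left when a fed peak had to be in both fed lists. At 9 of its 11 PPARα sites, PPARα calls were present in fed and fasted livers. In the promoter, 292 bp upstream, PPARα alone was called in fasted livers only. Sites at 7948 and 11165 bp upstream kept PPARα in both states with BCL6 in fed livers only, and at 3104 bp both factors were called in fed livers only. Farther upstream, at 52802 and 55572 bp, BCL6 and PPARα were called in both states, with fed PPARδ at the farther site. Intron 1 held 6 sites, of which the 1 at 30489 bp, with BCL6 alone in fed livers, had 3 BCL6 element matches, among them TTCCTAGAA itself.

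*Baat* (chr4:49489418-49506558, minus strand) had 5 sites, all with PPARα. Its promoter site, 741 bp upstream, was PPARα alone in fasted livers, as at *Cyp7b1*. BCL6 and PPARα were called in both states 3916 bp upstream and 20935 bp downstream of the TSS, the latter beyond the 3′ end. BCL6 was called in fed livers only in intron 1, at 2854 bp, and at 20089 bp, where PPARδ was also called in fed livers, and at both PPARα was called in both states.

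Of the transporters, *Abcb11* (chr2:69238282-69342616, minus strand) had 3 sites and the fewest PPARα sites, 1. That site, at chr2:69342559-69342816 and 66 bp upstream of the TSS, had PPARα in both states, PPARδ in fed livers and BCL6 in fasted livers. Its sequence holds an IR1 with 1 mismatch, AGGTCAATGGCCT on the other strand, which shares a base with an HNF4 match, and a second IR1 with 2 mismatches. FXR is known to activate *Abcb11* through an IR1 in its promoter. The neighboring promoter site at 425 bp had BCL6 alone in fed livers. The fed *Bcl6* fl/fl list had no peak at this site but had a peak at the site at 66 bp. With a joining distance of 400 bp these promoter sites were joined, which left *Abcb11* with 2 sites. BCL6 alone was called in both states in intron 11, 47918 bp from the TSS.

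*Slc10a1* (chr12:80953185-80968705, minus strand) has 2 annotated TSSs. Its promoter site, 27 bp upstream of the internal TSS and in intron 1 of the longer transcript, had BCL6 and PPARα in both states. The site 7407 bp upstream had the same calls with PPARδ in fed livers. A site in intron 3 had PPARα alone in fasted livers, and a site in the 3′ untranslated part of exon 6, nearer to the TSS of *Srsf5*, had BCL6 alone in fed livers.

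*Abcb4* (chr5:8893721-8959226, plus strand) had 12 sites, 5 of them called in a single list. The site in the 5′ untranslated part of exon 1, 87 bp downstream of the TSS, had PPARα in fasted livers only, as did sites in introns 4 and 23. PPARα and BCL6 were both called in fasted livers only 7707 bp upstream, the only member site with that combination. It made up 2.13% of shared member sites, beside 2.53% of all shared sites. BCL6 and PPARα were called in both states with PPARδ in fed livers at 20099 bp upstream and in intron 14, 34929 bp downstream. In intron 4, at 8586 bp, BCL6 was called in both states and PPARα in fed livers only. PPARα alone was called in fasted livers at 8881 bp. These 2 sites were joined when the joining distance was 400 bp, which left *Abcb4* with 11 sites. At 6066 and 10961 bp in the same intron PPARα was called in both states. Of its 8 BCL6 sites, 4 were called in fed livers only.

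*Nr0b2* (chr4:133553376-133556686, plus strand) encodes the repressor SHP. All 4 of its sites had PPARα in both states. At the promoter site, chr4:133552814-133553127 and 386 bp upstream, BCL6 was called in both states and PPARδ in fed livers. The same calls without PPARδ were found 9994 bp downstream, beyond the 3′ end. At 4167 bp downstream BCL6 and PPARδ were called in fed livers only. PPARα alone was called 1160 bp upstream.

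*Nr1h4* (chr10:89454234-89533622, minus strand) encodes FXR and has 2 TSSs. PPARα was called at 12 of its 13 sites, in both states at 9 and in fasted livers only at 3. BCL6 was called at 8 sites, in both states at 6, in fasted livers only at 2 and in fed livers only at 0. With the fed *Bcl6* fl/fl list in place of the C57BL/6 one, 6 sites were in both states, 2 in fasted livers only and 1 in fed livers only, and the 2 fasted-only sites were other ones. The site 61 bp upstream of the first TSS had PPARα in both states and BCL6 in fasted livers only. The site 50 bp upstream of the internal TSS, in intron 2, had PPARα in both states and no C57BL/6 call of another factor, while the fed *Bcl6* fl/fl list had a BCL6 peak there. Intron 1 held the site in all 6 lists shown above, 11904 bp upstream of the internal TSS, and a site 1449 bp downstream of the first TSS with BCL6 and PPARα in both states and PPARδ in fed livers. The only *Nr1h4* site without PPARα was 30636 bp upstream, with BCL6 in fasted livers.

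The number of peaks per gene in each list gives the same data by feeding state. The fed BCL6 list held 49 member peaks of 15642 (0.313%) and the fasted list 37 of 9613 (0.385%). The PPARα lists held 51 of 21410 (0.238%) in fed and 61 of 29085 (0.21%) in fasted livers, and the PPARδ lists 20 of 7328 (0.273%) in fed and 3 of 2399 (0.125%) in fasted livers. BCL6 peaks were fewer in the fasted than in the fed C57BL/6 list at 7 of 10 members, beside 61.4% of all genes with a BCL6 peak in either list. Set beside the fed *Bcl6* fl/fl list they were fewer at 5 of 10, beside 68.2% of genes. *Cyp7b1* had 11 peaks in the fed C57BL/6 list, 8 in the fed *Bcl6* fl/fl list and 5 in the fasted list. *Cyp7a1* had 6 in the fed C57BL/6 list and 8 in each of the other two, so the larger fasted count depended on the fed list. *Nr1h4* had 6 and 7 in the fed lists and 8 in the fasted list, and *Abcb11* had 2 and 1 in the fed lists and 2 in the fasted list. PPARα peaks were more numerous in fasted livers at 6 of 10 members, beside 59.8% of all genes with a PPARα peak in either list, equal at 3 and fewer only at *Cyp27a1* (5 fed, 4 fasted). The 3 fasted PPARδ peaks fell at *Cyp7a1* (2) and *Nr1h4* (1).

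**Figure D3:**
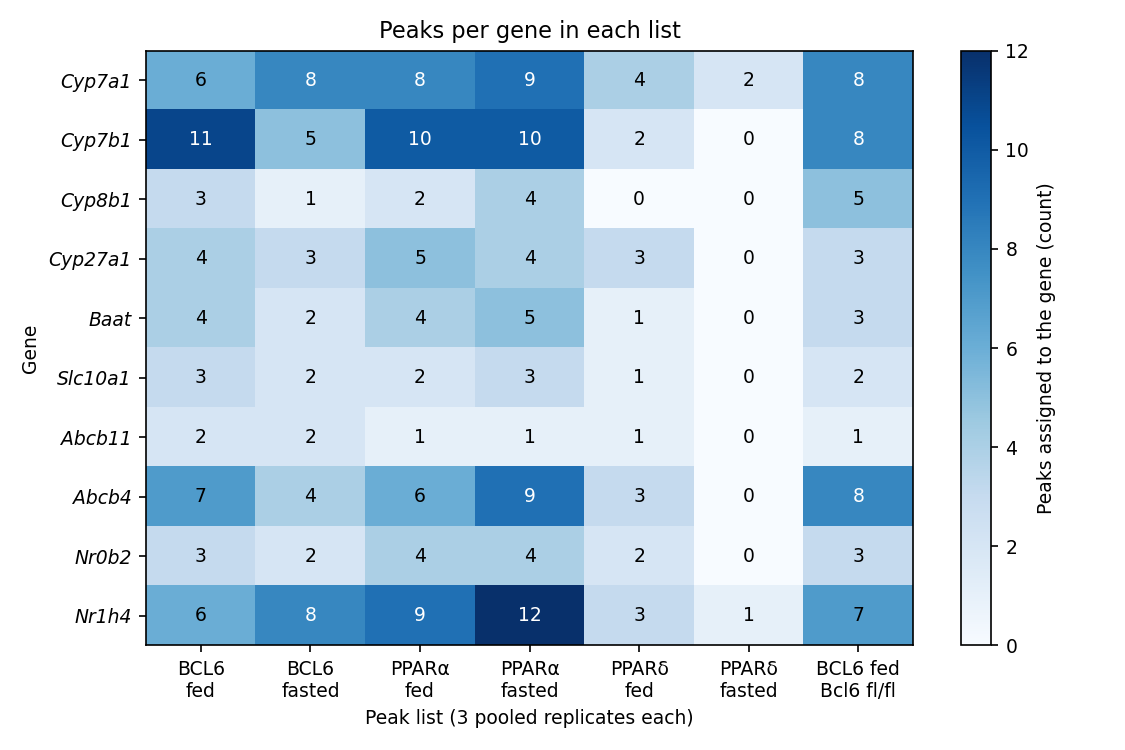
Number of peaks assigned to each member (rows) in each of the 7 peak lists (columns), with the count written in each cell and shaded by its size. *Cyp7b1* has 11 and 8 BCL6 peaks in the fed C57BL/6 and *Bcl6* fl/fl lists and 5 in the fasted list, *Cyp7a1* has 6, 8 and 8, and the fasted PPARδ column is 0 except at *Cyp7a1* and *Nr1h4*.

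By site, calls of BCL6 were confined to fed livers at 19 of 56 member sites (33.9%, 22.9% to 47%) beside 45.3% of all BCL6 sites. It was called in both states at 30 (53.6%, 40.7% to 66%) beside 43.6%, and in fasted livers only at 7 (12.5%, 6.19% to 23.6%) beside 11%. Each of these genome-wide shares lay within the interval of the members. PPARα was called in both states at 47 of 65 member sites (72.3%, 60.4% to 81.7%) beside 51.3% of all PPARα sites. Fed-only calls made up 4 sites (6.15%, 2.42% to 14.8%) beside 12.8%, and fasted-only calls 14 (21.5%, 13.3% to 33%) beside 35.8%. The genome-wide shares for both states and for fasted livers only lay outside the members' counting intervals, and no test was made of the difference. PPARα sites of the members also had BCL6 more often, at 72.3% beside 40.9% of all PPARα sites. Over the genome, PPARα sites without BCL6 were called in fasted livers only at 52.6%, beside 35.8% of all PPARα sites. Whether the difference remains at a like share of sites with BCL6 was not tested. PPARδ was called in fed livers only at 17 of 20 member sites (85%, 64% to 94.8%) beside 70.7% of all PPARδ sites, in both states at 3 (15%, 5.24% to 36%) beside 18.7%, and in fasted livers only at 0 (upper limit 16.1%) beside 10.6%.

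**Figure D4:**
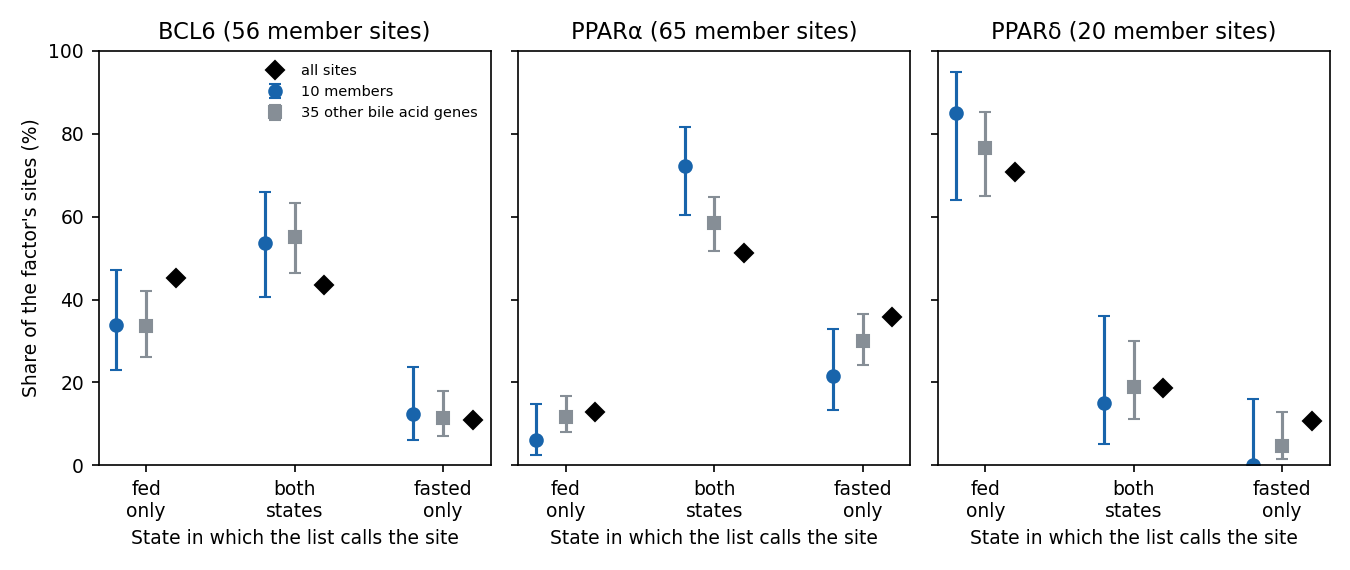
Share of each factor's sites (vertical axis, %) called in fed livers only, both states or fasted livers only, for the 10 members (circles), 35 other bile acid genes (squares) and all sites (diamonds). Bars are 95% Wilson intervals, and the members' PPARα share in both states is 72.3% beside 51.3% of all sites.

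BCL6 and PPARα shared 47 of 74 member sites (63.5%, 52.1% to 73.6%) beside 35.4% of all sites. From the side of PPARα, 47 of 65 sites had BCL6 (72.3%) beside 40.9% of all PPARα sites. From the side of BCL6, 47 of 56 sites had PPARα (83.9%, 72.2% to 91.3%) beside 77.5% of all BCL6 sites, a share that the interval holds. PPARδ never occurred without PPARα at the members, 20 of 20 sites (100%, 83.9% to 100%) beside 85% of all PPARδ sites, and 19 of the 20 also had BCL6 (95%, 76.4% to 99.1%) beside 56.7%. All 3 factors were called at 19 of 74 member sites (25.7%, 17.1% to 36.7%) beside 12.1% of all sites. The remaining member sites were 17 of PPARα alone, 9 of BCL6 alone and 1 of PPARα with PPARδ. PPARα alone was the most frequent class over the genome, at 45.3% of all sites, while BCL6 alone made up 10% and PPARα with PPARδ 6.03%.

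At shared member sites the centers of the nearest BCL6 and PPARα peaks were a median of 13 bp apart (0 to 87 bp, 47 sites), and at all 13633 shared sites 14 bp. The most common state of the shared member sites was both factors in both states, at 27 of 47 (57.4%, 43.3% to 70.5%) beside 44% of all shared sites. BCL6 in fed livers only with PPARα in both states followed at 11 (23.4%, 13.6% to 37.2%) beside 25.1%. These 11 were found at *Cyp7b1* (4), *Baat* (2), *Abcb4* (2) and at *Cyp8b1*, *Cyp27a1* and *Nr0b2* (1 each). In the C57BL/6 lists no member site exchanged fed BCL6 for fasted PPARα (0 of 47, upper limit 7.56%), beside 5.84% of all shared sites, a share that the interval holds. PPARα sites without BCL6 were called in fasted livers only at 12 of 18 (66.7%, 43.7% to 83.7%) beside 52.6% of all such sites. Counted the other way, 12 of the 14 fasted-only PPARα sites of the members had no BCL6 call in either C57BL/6 list. This share was close to that over the genome, 10374 of 11961 fasted-only PPARα sites. The other 2 member sites were *Cyp7a1* intron 4 and *Abcb4* at 7707 bp upstream. Of the 12, 2 had a BCL6 peak in the fed *Bcl6* fl/fl list, *Cyp8b1* at 10474 bp upstream and *Abcb4* in intron 23. With that fed list these 2 sites had BCL6 in fed and PPARα in fasted livers only, so the 0 above depended on the fed list.

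Every member had a PPARα site in a promoter, 10 of 10 genes beside 21% of all protein-coding genes, and a promoter site of any factor likewise at 10 of 10 beside 21.7%. BCL6 was called in the promoter of 7 of 10 members, all but *Cyp7b1*, *Baat* and *Abcb4*, beside 3.26% of all genes. Among the 12 promoter sites, PPARα was called in both states at 8 and in fasted livers only at 3. Over PPARα sites of any location these states made up 51.3% and 35.8%, and shares over promoter sites alone are not given here. The 3 genes with fasted-only PPARα in the promoter were the same 3 whose promoters had no BCL6 call. Over the genome, 10374 of 11961 fasted-only PPARα sites of any location likewise had no BCL6 call. The promoter site 50 bp upstream of the internal *Nr1h4* TSS also had no C57BL/6 BCL6 call, with PPARα in both states. BCL6 was called in both states at 5 promoter sites, in fasted livers only at 2 (*Abcb11* and *Nr1h4*) and in fed livers only at 1 (*Abcb11*). Over BCL6 sites of any location these states made up 43.6%, 11% and 45.3%. PPARδ was called at 3 promoter sites, those of *Cyp27a1*, *Abcb11* and *Nr0b2*, each in fed livers only, as were 70.7% of all PPARδ sites.

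The fed *Bcl6* fl/fl list gave a second set of BCL6 calls in fed livers. In its differences, genotype cannot be told apart from anything else that differed between the libraries. The labels name no batch. The fed *Bcl6* fl/fl list held 48 member peaks of 17454 (0.275%). Of 49 member sites called in fed C57BL/6 livers, 38 had a *Bcl6* fl/fl peak within 200 bp (77.6%, 64.1% to 87%) beside 69.5% of all fed C57BL/6 BCL6 sites. The share was 27 of 30 (90%, 74.4% to 96.5%) beside 88.6% for sites called in both states, and 11 of 19 (57.9%, 36.3% to 76.9%) beside 51% for sites called in fed livers only. Of the 7 member sites called in fasted but not fed C57BL/6 livers, 5 had a peak in the fed *Bcl6* fl/fl list (71.4%, 35.9% to 91.8%) beside 49% of all such sites. These were *Cyp7a1* at 32643 bp downstream and 3089 bp upstream, the *Abcb11* promoter, and *Nr1h4* at 61 and 30636 bp upstream. At these 5 sites the call depended on which fed list was set beside the fasted one. When a fed peak had to be in both fed lists, 11 member sites in place of 19 were called in fed livers only. Conversely, 5 of the 48 *Bcl6* fl/fl peaks (10.4%) had no C57BL/6 BCL6 peak within 200 bp, beside 32.3% of that list: 2 at *Abcb4*, 2 at *Cyp8b1* and 1 at 148 bp upstream of the internal *Nr1h4* TSS, within 200 bp of the PPARα peaks there.

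Elements were counted in the 200 bp around the center of 74 member sites and 38461 sites of the genome. The HNF4 element was the most frequent, at 21 member sites (28.4%, 19.4% to 39.5%) beside 17.1% of all sites. The LRH-1 element followed at 18 (24.3%, 16% to 35.2%) beside 12.3%. *Cyp7a1* had most of both, with 5 sites each. IR1 was found at 7 member sites (9.46%, 4.66% to 18.3%) beside 3.24% and DR4 at 7 beside 4.67%. DR1, the PPAR form, was found at 4 (5.41%, 2.12% to 13.1%) beside 13.5%, and at 3 of 65 member PPARα sites (4.62%) beside 14% of all PPARα sites. The BCL6 element was found at 7 member sites (9.46%) beside 9.86% of all sites, and the FOXA element at 7 (9.46%) beside 7.37%. Among member sites the 7 with the BCL6 element all had a BCL6 call, beside 2653 of 3793 sites with the element over the genome. BCL6 was called at 56 of the 74 member sites whatever their elements. The BCL6 element was found at 3 of 9 member sites of BCL6 without PPARα (33.3%) and 4 of 47 shared member sites (8.51%). The corresponding shares over the genome were 30.5% and 10.6%. Most of the matches were inexact, since with 1 mismatch fewer the HNF4 and LRH-1 elements were each left at 2 member sites, IR1, DR4 and the BCL6 element at 1 and DR1 at 0.

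**Figure D5:**
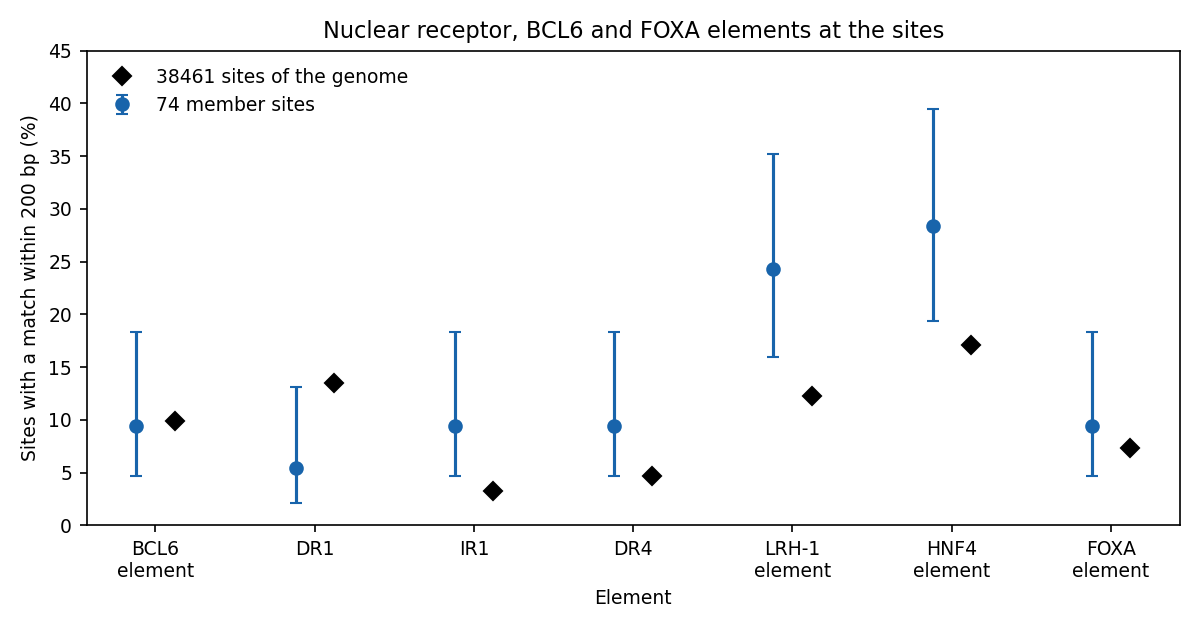
Share of sites (vertical axis, %) with a match to each of 7 elements (horizontal axis) in the 200 bp around their center, for the 74 member sites (circles, bars are 95% Wilson intervals) and 38461 sites of the genome (diamonds). HNF4 and LRH-1 matches are the most frequent at the members, at 28.4% and 24.3%, and DR1 matches the least, at 5.41%.

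A further 35 genes of bile acid metabolism were counted the same way. At least 1 site was found at 32 of them, beside 52.7% of all protein-coding genes. BCL6 was found at 27 (30.9% of all genes), PPARα at 31 (49.5%) and PPARδ at 22 (21.1%). The median was 5 sites per gene, beside 1 over all genes. No site was found at *Cyp46a1*, the cholesterol 24-hydroxylase of brain, *Gpbar1*, the membrane bile acid receptor, or *Fgf15*, the ileal hormone that represses *Cyp7a1*. The most sites were found at *Nr5a2* (26), which encodes LRH-1, *Rxra* (20), the partner of FXR and the PPARs, *Akr1d1* (17), a reductase of both synthesis pathways, *Scp2* (17), the peroxisomal thiolase of side chain shortening, and *Atp8b1* (16), a canalicular phospholipid flippase. All 9 genes of the classical and side chain steps, all 3 sinusoidal uptake genes, all 4 canalicular and all 4 basolateral export genes had sites, as did 7 of 8 regulators and 2 of 3 ileal genes. BCL6 and PPARα shared 115 of their 234 sites (49.1%, 42.8% to 55.5%) beside 35.4% of all sites, and all 3 factors were called at 45 (19.2%) beside 12.1%. PPARα was called in both states at 125 of 214 sites (58.4%, 51.7% to 64.8%), between the members' 72.3% and the 51.3% of all sites. A PPARα promoter site was found at 21 of the 35 genes beside 21% of all protein-coding genes, and a BCL6 promoter site at 10 beside 3.26%.

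The reach of 100 kb cut few sites. The farthest site inside it by nearest TSS was 80384 bp from *Cyp7b1*, with BCL6 and PPARα in both states, and the nearest outside it was 182732 bp from the same gene, with PPARα in fasted livers only. Another 5 member sites counted through the gene body alone, their nearest TSS belonging to *Bhlhe22*, *Srsf5*, *Crot* or, at 2 sites, *Gas2l3*.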

How the data were processed

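Peak lists from ChIP-seq of BCL6, PPARα and PPARδ in mouse liver were used, 7 in all and each over 3 replicates. Alignment by the authors was with Bowtie to mm10, and only reads with a unique match, counted once per start position, were retained, so repeated sequence can lack peaks. HOMER was then run by the authors over the pooled replicates with input as background, and DESeq2 on single libraries kept peaks passing 2-fold enrichment and an FDR of 0.05. The deposited lists hold peak positions alone (chromosome, start, end), without counts or scores.

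Centers within 200 bp were joined by single linkage. Genes were the 21000 protein-coding genes that have a curated transcript in RefSeq (37867 transcripts, GRCm38.p6, the same assembly as mm10). The members, the other bile acid genes and the elements were chosen with earlier results of these data known. All 10 members and, of the other genes, those without a site and the 5 with the most sites were named. Functions were tested on simulated data. Some site sequences are not reported here. Knockout, input and histone libraries were not used here. Software was NumPy 2.4.6 and SciPy 1.17.1 under Python 3.11.15, with figures from Matplotlib 3.10.9.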

Additional observations from a re-analysis of the deposited data

How the results depend on the processing

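Counts of member sites were recomputed with the nearest TSS only, a reach of 50 kb or 1 Mb, joining distances of 100 and 400 bp, joining by an overlap of 1 bp, and other fed BCL6 lists. Of 84 such values over all members, 83 stayed within 1.5 times the count reported. The exception was BCL6 called in fed livers only, which went from 19 to 11 sites when a fed peak had to be in both fed lists, a stricter rule that can only remove fed calls. All 80 recounts of the number of sites per gene stayed within 1.5 times, the 20 with other fed BCL6 lists having been added after seeing the data. BCL6 states within a gene moved more: with the fed *Bcl6* fl/fl list in place of the C57BL/6 one, fed-only sites went from 6 to 3 at *Cyp7b1* and from 2 to 4 at *Cyp8b1*, and fasted-only sites from 2 to 0 at *Cyp7a1*. Of 13 recounts of the elements, 11 moved further, as a narrower window or 1 mismatch fewer leaves fewer matches: with 1 mismatch fewer the LRH-1 and HNF4 elements were each left at 2 member sites (2.7%), beside 1.1% and 2.2% of all sites. The FOXA element was scanned without mismatches and so had no such recount. Fed and fasted livers came from different mice, so the feeding states could not be paired. Each list was called over pooled replicates, for which reason no replicate could be left out. The lists hold no scores, so a stricter peak threshold could not be tried, and no depth is known.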
